A study of Mus musculus with 18 samples.

Results

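The 9 Hoxc genes of the mouse, Hoxc4, Hoxc5, Hoxc6, Hoxc8, Hoxc9, Hoxc10, Hoxc11, Hoxc12 and Hoxc13, were examined as the complete set of Hox genes in that cluster. They were taken by gene identifier from a table of 27997 genes, and all 9 were found in it. RNA had been measured in 18 libraries, 3 for each of 6 groups. The tdTomato line came from spinal cord labelled as traced by DNGR-1 (genotype DNGR-1 +/- Tom+/-) and the EYFP line from spinal cord traced in the same way (DNGR-1 +/- EYFP+/-). In both, Cre was expressed from the Clec9a locus, which encodes DNGR-1, and recombined a reporter in the Rosa locus. The hippocampal line (labelled DNGR-1+/+) came, according to the study's methods, from mice with Glast-driven Cre, a floxed Huwe1 allele and an EYFP reporter in Rosa. Each line was sampled as adherent neural stem cells (NSCs) collected after 4 days, and as astrocytes collected after 6 days in medium with 20 ng/ml BMP4. The replicates of a group were cultures from passages 10 to 12 of 1 line. Their p-values therefore measure the spread between cultures of that line, and line, animal and dissection cannot be told apart. The spinal level from which the traced lines were taken is not given in the sources used here, and for age the methods give only a general range of young adult mice. The comparisons below ask how far along the Hoxc cluster each line carried RNA, and whether that changed with differentiation.

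Hox genes encode homeodomain transcription factors that give cells their position along the body axis. Within a cluster, genes at the 3′ end are switched on earlier in development and further towards the head, and genes at the 5′ end later and further towards the tail, an arrangement called colinearity. In the spinal cord, the members from Hoxc4 to Hoxc8 are known for cervical and brachial levels, Hoxc9 for thoracic levels, and Hoxc10 to Hoxc13 for lumbar and more caudal levels. The forebrain, to which the hippocampus belongs, develops without Hox expression.

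All members lie on the plus strand of chromosome 15, with Hoxc13 beginning at position 102921103 and Hoxc4 ending at position 103036852 (GRCm38). The homeobox, which encodes the DNA-binding homeodomain, was read for every member from the GENCODE M21 transcripts, and it lay within 1 exon, exon 2 of 2 in 8 members and exon 3 of 3 in Hoxc9. The homeoboxes of Hoxc9 to Hoxc13 are shown because the lines parted between Hoxc10 and Hoxc11. Each holds 180 bases, 5′ to 3′ on the plus strand, and the capitals mark 18 bases of the recognition helix, the part of the homeodomain that contacts DNA. On GRCm38 they lie at chr15:102983930-102984109 (Hoxc9), chr15:102970848-102971027 (Hoxc10), chr15:102956480-102956659 (Hoxc11), chr15:102938308-102938487 (Hoxc12) and chr15:102927210-102927389 (Hoxc13).
Hoxc9: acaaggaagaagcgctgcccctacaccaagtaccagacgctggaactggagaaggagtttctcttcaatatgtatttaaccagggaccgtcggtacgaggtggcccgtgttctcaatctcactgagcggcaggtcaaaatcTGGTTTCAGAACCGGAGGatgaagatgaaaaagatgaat
Hoxc10: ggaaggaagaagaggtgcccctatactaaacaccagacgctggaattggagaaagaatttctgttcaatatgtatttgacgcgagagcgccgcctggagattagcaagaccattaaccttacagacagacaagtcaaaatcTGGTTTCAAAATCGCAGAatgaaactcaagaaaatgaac
Hoxc11: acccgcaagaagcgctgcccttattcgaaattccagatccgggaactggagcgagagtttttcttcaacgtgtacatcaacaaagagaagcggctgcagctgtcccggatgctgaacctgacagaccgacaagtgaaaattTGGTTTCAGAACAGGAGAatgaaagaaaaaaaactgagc
Hoxc12: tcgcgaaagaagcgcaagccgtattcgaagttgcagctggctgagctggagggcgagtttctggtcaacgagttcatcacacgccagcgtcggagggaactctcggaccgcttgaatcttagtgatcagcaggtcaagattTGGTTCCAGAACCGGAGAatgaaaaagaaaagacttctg
Hoxc13: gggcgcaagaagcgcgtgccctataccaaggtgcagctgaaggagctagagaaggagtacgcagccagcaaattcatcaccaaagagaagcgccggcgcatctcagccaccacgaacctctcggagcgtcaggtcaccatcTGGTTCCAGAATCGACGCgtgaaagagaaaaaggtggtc
Hoxc9 and Hoxc10 shared 71.7% of these bases, Hoxc10 and Hoxc11 67.2%, and Hoxc12 and Hoxc13 62.2%. No exon stretch of 75 bases from Hoxc11, Hoxc12 or Hoxc13 occurred in another annotated gene. Reads of Hoxc5 and Hoxc10 can be confused in part: a transcript assigned to Hoxc5 begins inside Hoxc10, 166 exon bases are common to both, and 3.12% of the 75-base stretches of Hoxc5 and 5.12% of those of Hoxc10 occur in the other gene.

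The values are log2 normalized expression values. They have the form of a regularized log, in which a gene without reads is not at 0 but at a low value that differs from gene to gene. The hippocampal libraries show that low value: Hoxc10 lay between 4.56 and 4.75 there and Hoxc12 between 1.41 and 1.54. Over the 9 members and 6 hippocampal libraries, 48 of 54 values lay within 0.05 of 1 shared pattern of offsets between libraries, and the other 6 lay above it by at most 0.21. The range of each member over those libraries was 0.11 to 0.32, which cannot be set against counting noise because the values are not counts. A log2 difference from a group at such a low value is therefore a lower bound of unknown size, and no fold is given. Read depth is unknown, since counts cannot be recovered from these values. Replicates were close: the median absolute difference between replicates was 0.0607 to 0.107 over 11956 genes and 18 pairs. Gfap, the intermediate filament of astrocytes, had a mean of 9.06 to 9.30 in the NSC groups and 15.14 to 16.40 in the astrocyte groups. The lines also differed in sex-linked RNA, which cannot be told apart from line: Xist was at 13.09 to 14.99 in tdTomato libraries and 5.04 to 5.59 in the others, and Ddx3y at 4.29 to 4.53 and 8.43 to 9.92.

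The tdTomato line carried RNA of every Hoxc member, the EYFP line of the members from Hoxc4 to Hoxc10 and not clearly of those beyond it, and the hippocampal line clearly of none. In NSCs, Hoxc10 was at 9.82, 10.09 and 10.05 in the tdTomato line, at 9.12, 9.09 and 9.12 in the EYFP line and at 4.58, 4.58 and 4.56 in the hippocampal line. Its neighbour Hoxc11 was at 7.76, 7.74 and 7.62 in tdTomato NSCs, at 1.77, 2.04 and 1.80 in EYFP NSCs and at 1.84, 1.85 and 1.82 in hippocampal NSCs. Both traced lines were thus well above the hippocampal libraries at Hoxc10, whereas at Hoxc11 the EYFP libraries lay around the hippocampal ones. For Hoxc12 the tdTomato NSC libraries gave 6.55, 6.72 and 6.78, the EYFP libraries 1.70, 1.35 and 1.40 and the hippocampal libraries 1.44, 1.44 and 1.41. For Hoxc13 these values were 6.87, 6.99 and 7.13, then 1.79, 1.45 and 1.50, then 1.54, 1.54 and 1.51. The tdTomato libraries did not overlap with the others at either gene, and EYFP and hippocampal libraries did.

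The rostral members were carried by both traced lines. Hoxc4 was at 7.02, 6.93 and 6.91 in tdTomato NSCs, at 6.92, 6.73 and 6.51 in EYFP NSCs and at 3.00, 3.00 and 2.97 in hippocampal NSCs. Hoxc5 was at 4.20, 4.46 and 4.79, at 4.01, 4.19 and 4.62, and at 2.02, 2.02 and 2.00 in the same order of lines. Hoxc6 was at 7.67, 7.71 and 7.87, at 7.38, 7.23 and 7.25, and at 3.55, 3.38 and 3.36. The traced libraries overlapped with each other at Hoxc4 and Hoxc5 but not at Hoxc6, and all lay above the hippocampal ones. In astrocytes Hoxc4 was at 7.18, 7.43 and 7.25 in the tdTomato line and at 6.45, 6.68 and 6.64 in the EYFP line. Hoxc5 was at 5.50, 5.63 and 5.49 and at 4.54, 4.58 and 4.90, and Hoxc6 at 7.81, 8.13 and 8.13 and at 7.34, 7.57 and 7.49. The tdTomato astrocytes lay above the EYFP astrocytes at these 3 genes without overlap. Hippocampal astrocytes were between 3.02 and 3.30 for Hoxc4, 2.04 and 2.11 for Hoxc5 and 3.40 and 3.46 for Hoxc6.

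The caudal limits were the same in astrocytes. Hoxc11 was at 7.81, 7.57 and 7.47 in tdTomato astrocytes, at 1.77, 2.43 and 2.48 in EYFP astrocytes and at 1.94, 1.95 and 1.87 in hippocampal astrocytes. The second and the third EYFP libraries thus lay above every hippocampal library, by far less than the tdTomato libraries did. Hoxc12 was at 6.48, 6.30 and 6.09 in tdTomato astrocytes, between 1.37 and 1.50 in EYFP and between 1.47 and 1.54 in hippocampal astrocytes. Hoxc13 was at 7.07, 6.40 and 6.63 in tdTomato astrocytes, between 1.47 and 1.60 in EYFP and between 1.57 and 1.64 in hippocampal astrocytes. In bulk RNA, a smaller number of cells that carry a transcript and less transcript in each cell cannot be told apart.

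**Figure D1:**
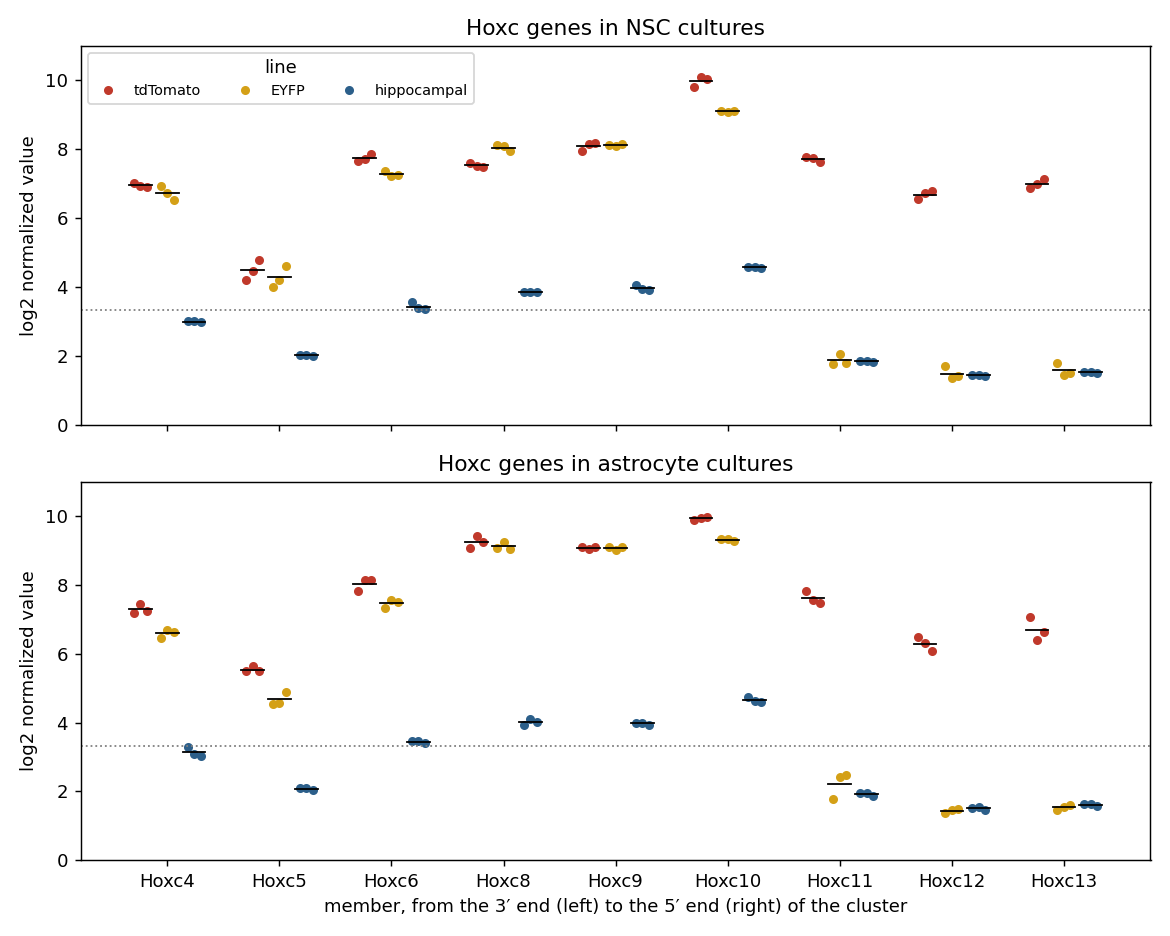
Log2 normalized value of each Hoxc gene in NSC cultures (upper panel) and astrocyte cultures (lower panel); each point is 1 library, each bar the mean of 3, colours give the line, and the dotted line is the limit of 3.32 (a linear value of 10). Points of the tdTomato and EYFP lines lie near each other from Hoxc4 to Hoxc10 and separate at Hoxc11, where EYFP comes near the hippocampal line. Silent genes have no fixed value, so heights should be compared between lines for a gene.

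A limit of 3.32, equal to a linear value of 10, was reached in every library by 9 members in both tdTomato groups and by 6, Hoxc4 to Hoxc10, in both EYFP groups. In the hippocampal groups 4 members, Hoxc6, Hoxc8, Hoxc9 and Hoxc10, also reached it, at 3.36 to 4.75. Of these values, 1 each for Hoxc6, Hoxc9 and Hoxc10 and 2 for Hoxc8 lay above the offset pattern described above, by at most 0.17, and the others lay in it. With the limit raised to 6.64, a linear value of 100, the hippocampal count was 0 in both fates, and 7 members passed in tdTomato NSCs, 6 in tdTomato astrocytes and 4 in either EYFP group. Hoxc5 stayed under the higher limit in every group, with means of 4.48 in tdTomato NSCs and 4.27 in EYFP NSCs. Hoxc12 stayed under it in all libraries of tdTomato astrocytes and in 1 library of tdTomato NSCs, and Hoxc13 in the second and the third library of tdTomato astrocytes.

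Within a line, levels were compared between members per length, as the log2 value minus log2 of the exon length in kb. The length was that of all annotated exons of a gene together, and the order of some members changed when the longest transcript was used instead. Hoxc10 was the highest member in each traced group, at 9.06 ± 0.14 (SD, n = 3) in tdTomato NSCs and 8.18 ± 0.02 in EYFP NSCs. In tdTomato NSCs it was followed by Hoxc9 (6.80), Hoxc11 (6.69), Hoxc12 (6.64) and Hoxc6 (6.48), and library ranges of each neighbouring pair among these 4 overlapped. Hoxc8 (6.02), Hoxc13 (5.70) and Hoxc4 (5.59) came next, of which Hoxc13 and Hoxc4 overlapped, and Hoxc5 was last at 2.85. By the longest transcript, Hoxc6 was second at 7.09, above Hoxc9 (6.84), and Hoxc4 (5.87) came before Hoxc13 (5.70). In EYFP NSCs the order ran Hoxc10, Hoxc9 (6.84), Hoxc8 (6.54), Hoxc6 (6.02), Hoxc4 (5.36) and Hoxc5 (2.65), with no overlap between neighbours. By the longest transcript, Hoxc8 (6.89) came level with Hoxc9 (6.87) there. In astrocytes the first 4 members were Hoxc10, Hoxc9, Hoxc8 and Hoxc6 in both traced lines, with Hoxc9 and Hoxc8 at 7.80 and 7.74 in tdTomato and at 7.79 and 7.61 in EYFP astrocytes. Those 2 genes overlapped in the tdTomato line, and so did Hoxc6 with Hoxc11 and Hoxc12 with Hoxc4. By the longest transcript Hoxc8 was above Hoxc9, at 8.09 and 7.83 in tdTomato and at 7.96 and 7.83 in EYFP astrocytes. Hoxc10 was first and Hoxc5 the lowest of the members from Hoxc4 to Hoxc10 by either length, in both traced lines and fates.

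**Figure D2:**
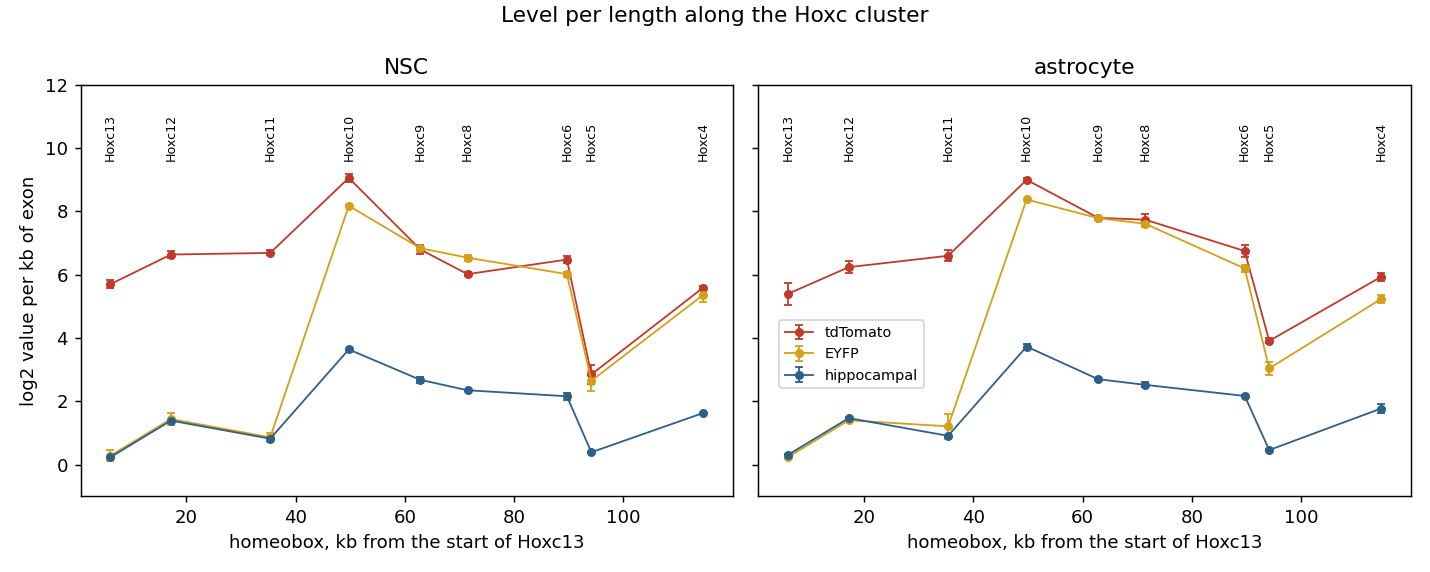
Log2 value per kb of exon (mean and SD of 3 libraries) of each Hoxc gene against the distance of its homeobox from the start of Hoxc13, in kb, for NSCs and astrocytes; lines join the members of a cell line and stand for no measurement in between. Hoxc10 is the peak in both traced lines, at 9.06 and 8.18 in NSCs. The EYFP line falls between it and Hoxc11 to near the values of the hippocampal line, which are those of genes without a clear signal. At Hoxc11 the EYFP and hippocampal lines were at 0.86 and 0.82 in NSCs and at 1.21 and 0.91 in astrocytes.

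The differences were tested with limma on all genes that reached the lower limit in at least 3 of the libraries compared, with Benjamini-Hochberg adjustment over all of them. Against hippocampal NSCs, all 9 members were tested in the tdTomato line and all 9 were higher, where 23% of 14380 genes tested were higher. In the EYFP line 6 members were tested and all 6 were higher, where 14.6% of 14347 genes were higher, and Hoxc11, Hoxc12 and Hoxc13 did not reach the limit. The differences ran from 2.47 ± 0.22 (SE) for Hoxc5 to 5.87 ± 0.14 for Hoxc11 in tdTomato NSCs, and from 2.26 ± 0.22 for Hoxc5 to 4.54 ± 0.08 for Hoxc10 in EYFP NSCs. In astrocytes the same counts were 9 of 9 in the tdTomato line, against 25.3% of 14847 genes, and 6 of 6 in the EYFP line, against 21.6% of 14777. The members Hoxc4, Hoxc5 and Hoxc11 to Hoxc13 passed the filter only through the traced groups, so that their being tested already implied a difference, and the counts lend no support beyond the values themselves.

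The traced lines differed from each other by far more at the caudal end than elsewhere in the cluster. In NSCs, tdTomato exceeded EYFP by 5.84 ± 0.15 (SE) for Hoxc11, 5.20 ± 0.18 for Hoxc12 and 5.42 ± 0.17 for Hoxc13, the factors of the most caudal cord. These 3 genes entered the test only through the tdTomato libraries, so that their being tested already implied a difference. No p-value is given for them. Among the members that both lines carried, Hoxc10, a lumbar motor neuron determinant, was higher in tdTomato NSCs by 0.88 ± 0.07 (adjusted p = 1.1e-04) and Hoxc6, a gene of brachial levels, by 0.46 ± 0.08 (adjusted p = 0.0049).

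Hoxc8, which acts in brachial motor neurons, went the other way. It was at 7.60, 7.51 and 7.47 in tdTomato NSCs and at 8.11, 8.08 and 7.94 in EYFP NSCs, without overlap, and was lower in tdTomato by 0.52 on the log2 scale (log2 difference -0.52 ± 0.08, adjusted p = 0.0018). Hoxc9, which sets thoracic identity, was at 7.94, 8.15 and 8.17 in tdTomato and at 8.12, 8.10 and 8.14 in EYFP NSCs. These libraries overlapped, and the difference of -0.03 had a 95% interval of -0.21 to 0.14. Hoxc4 and Hoxc5 also did not pass the threshold in NSCs, with intervals of -0.03 to 0.50 and -0.30 to 0.72. In all, 5 members were higher and 1 was lower in tdTomato NSCs, where 18% and 15.2% of 14304 genes were higher and lower. Of the 6 members that both lines carried, 2 were higher and 1 was lower, the other 3 higher ones being those that entered through tdTomato alone.

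In astrocytes 7 members were higher in the tdTomato line and none was lower, where 5.6% and 5.63% of 14615 genes were. No member was lower at an unadjusted p under 0.05 either, by limma. As in NSCs, Hoxc11, Hoxc12 and Hoxc13 entered the test only through the tdTomato libraries, which leaves 4 higher among the 6 members that both lines carried. Hoxc11 was higher by 5.39 ± 0.22, Hoxc12 by 4.84 ± 0.20 and Hoxc13 by 5.16 ± 0.22. The rostral members Hoxc4 (0.70 ± 0.11, adjusted p = 0.0046) and Hoxc5 (0.87 ± 0.16, adjusted p = 0.0088) were higher as well, and so were Hoxc6 (0.56 ± 0.11, adjusted p = 0.013) and Hoxc10 (0.62 ± 0.05, adjusted p = 1.7e-04). Hoxc6 missed the threshold, at a similar difference, without tdTomato replicate 2 (0.50, adjusted p = 0.059), tdTomato replicate 3 (0.50, 0.056) or EYFP replicate 1 (0.49, 0.052), and with no filter on low values (0.56, 0.068). Hoxc8 and Hoxc9 did not pass, with differences of 0.13 and 0.00 and intervals of -0.08 to 0.34 and -0.13 to 0.13. Hoxc8 was at 9.07, 9.41 and 9.25 in tdTomato and at 9.06, 9.24 and 9.05 in EYFP astrocytes, so the separation seen in NSCs was not present there.

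**Figure D3:**
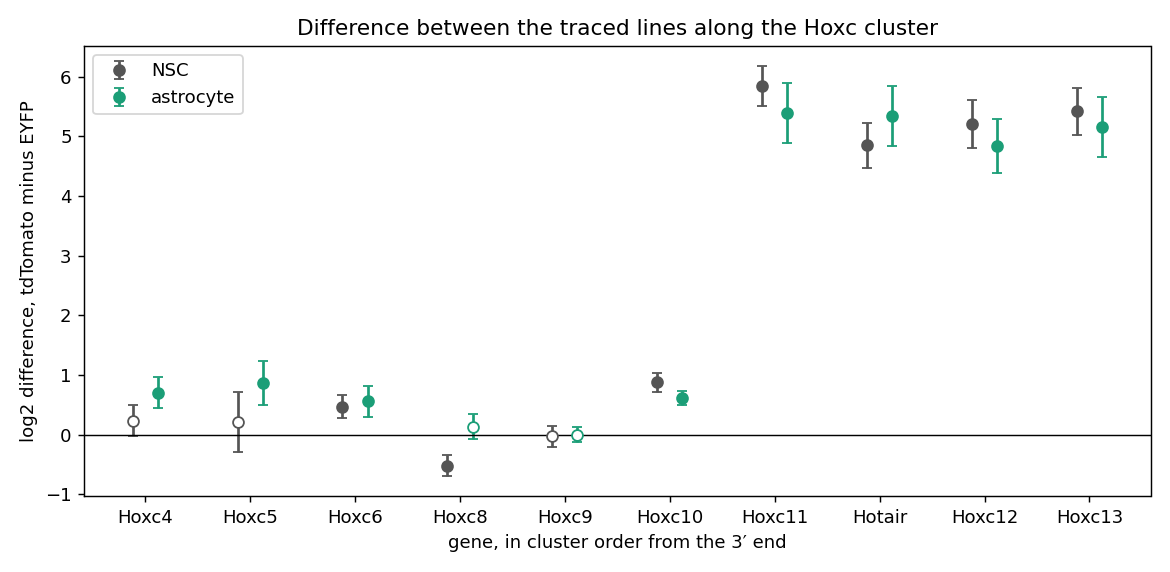
Log2 difference between the tdTomato and EYFP lines (tdTomato minus EYFP, 3 libraries each) with its 95% interval, for the Hoxc genes and the noncoding RNA Hotair in cluster order, in NSCs (grey) and astrocytes (green); filled points passed an adjusted p of 0.05. From Hoxc4 to Hoxc10 the differences lie between -0.52 and 0.88, and from Hoxc11 on between 4.84 and 5.84, which are lower bounds.

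On differentiation to astrocytes, Hoxc8 and Hoxc9 in the middle of the cluster rose in both traced lines. In the tdTomato line Hoxc8 rose from 7.60, 7.51 and 7.47 in NSCs to 9.07, 9.41 and 9.25 in astrocytes, by 1.72 ± 0.09 (SE, adjusted p = 1.7e-07). Hoxc9 rose from 7.94, 8.15 and 8.17 to 9.10, 9.04 and 9.09, by 0.99 ± 0.08 (adjusted p = 1.7e-06). Hoxc5 rose by 1.06 ± 0.18 (adjusted p = 4.4e-04), Hoxc4 by 0.34 ± 0.10 (adjusted p = 0.012) and Hoxc6 by 0.27 ± 0.11 (adjusted p = 0.04). Toward the caudal end the picture differed: Hoxc12 fell by 0.40 on the log2 scale (adjusted p = 0.021), and Hoxc10, Hoxc11 and Hoxc13 did not pass, with log2 differences of -0.06, -0.09 and -0.29. Thus 5 members rose and 1 fell, where 39.9% and 39.5% of 14727 genes did.

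The changes of Hoxc6 and Hoxc12 lay near the threshold. Hoxc6 did not pass without tdTomato NSC replicate 1 (0.23, adjusted p = 0.11) or 2 (0.25, 0.11) or without tdTomato astrocyte replicate 2 or 3 (0.22, 0.13 each). Nor did it pass without a filter on low values (0.27, adjusted p = 0.11) or without the trend in the variance (0.27, 0.057). Hoxc12 missed the threshold without tdTomato NSC replicate 2 (-0.38, adjusted p = 0.062) or 3 (-0.34, 0.071), without tdTomato astrocyte replicate 3 (-0.29, 0.075), and with each library centred on its median (-0.31, 0.053). Without tdTomato NSC replicate 1, Hoxc10 passed with a log2 difference of -0.14 in place of -0.06 (adjusted p = 0.042), and without tdTomato astrocyte replicate 1, Hoxc13 passed with -0.48 in place of -0.29 (adjusted p = 0.0089). With 1 of these libraries left out at a time, between 4 and 7 members passed.

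In the EYFP line, Hoxc8 rose from 8.11, 8.08 and 7.94 to 9.06, 9.24 and 9.05, by 1.07 ± 0.08 (adjusted p = 1.5e-06). Hoxc9 rose from 8.12, 8.10 and 8.14 to 9.09, 9.02 and 9.11, by 0.96 ± 0.06 (adjusted p = 6.6e-07). Hoxc10 rose by 0.21 ± 0.05 (adjusted p = 0.0062), from 9.09 to 9.12 in NSCs to 9.28 to 9.34 in astrocytes. Of the 6 members tested, 3 rose and none fell, where 37.5% and 37.4% of 14668 genes did, and none fell at an unadjusted p under 0.05 by limma. The other 3 had log2 differences of -0.13 (Hoxc4), 0.40 (Hoxc5) and 0.18 (Hoxc6), and Hoxc5 passed without EYFP NSC replicate 3 (0.57, adjusted p = 0.033). In the hippocampal line 4 members were tested, at values of genes without a clear signal, and none rose or fell, where 39.2% and 38.2% of 14781 genes did. None had an unadjusted p under 0.05 by limma, the smallest being 0.38, and limma without the trend in the variance passed 1, Hoxc8, with a difference of 0.16 (adjusted p = 0.036).

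**Figure D4:**
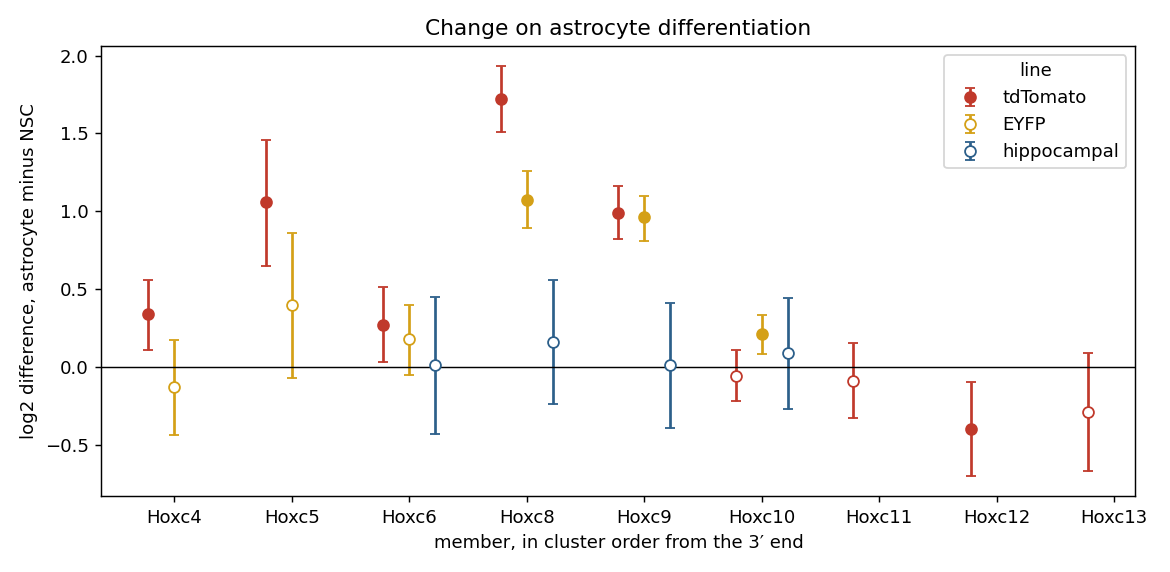
Log2 difference between astrocytes and NSCs of a line (astrocyte minus NSC, 3 libraries each) with its 95% interval for each Hoxc gene tested; colours give the line, filled points passed an adjusted p of 0.05, and genes that did not reach the limit in a line have no point. Hoxc8 and Hoxc9 stand at 1.72 and 0.99 in the tdTomato line and at 1.07 and 0.96 in the EYFP line, and all 4 hippocampal points lie between 0.01 and 0.16.

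Whether the traced lines changed unequally was tested as an interaction over their 12 libraries. Only Hoxc8 of the 9 members passed, where 5.76% of 15115 genes passed in that direction: its rise was larger in the tdTomato line by 0.64 ± 0.13 (SE, adjusted p = 0.0059). Hoxc11, Hoxc12 and Hoxc13 entered the test only through the tdTomato libraries. They were without a clear signal in the EYFP line, so the test could not compare their changes. Hoxc4 (0.47, adjusted p = 0.085), Hoxc5 (0.66, adjusted p = 0.14) and Hoxc10 (-0.26, adjusted p = 0.074) did not pass. Hoxc4 passed without EYFP NSC replicate 3 (0.57, adjusted p = 0.03) and Hoxc10 without tdTomato NSC replicate 1 (-0.34, adjusted p = 0.0064), which made the count 2 in each case. For Hoxc9 the difference between the lines was 0.04, with an interval of -0.16 to 0.24. Against the hippocampal line, the mean change of the traced lines was larger for Hoxc8 (1.23 ± 0.12, adjusted p = 1.7e-07), Hoxc9 (0.96 ± 0.10, adjusted p = 4.0e-07) and Hoxc5 (0.66 ± 0.23, adjusted p = 0.024), where 20.3% of 15448 genes passed in that direction. This contrast sets a change against a gene without a clear signal in the hippocampal line, and so mainly restates the rise of the traced lines. The small spread of the hippocampal libraries at these genes also enters the spread used in the test. Hoxc5 entered it only through the traced libraries, and missed the threshold with no filter on low values (adjusted p = 0.055).

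Hotair, a long noncoding RNA transcribed from the opposite strand between Hoxc12 and Hoxc11, was present in the line that carried those genes. It was at 6.28, 6.22 and 6.36 in tdTomato NSCs and at 7.02, 7.12 and 7.03 in tdTomato astrocytes, without overlap, a rise of 0.77 ± 0.10 (SE, adjusted p = 7.5e-05). In the EYFP line it was between 1.42 and 1.47 in NSCs and at 1.44, 2.15 and 1.57 in astrocytes, and in the hippocampal line between 1.48 and 1.61. The neighbouring Hoxc11 and Hoxc12 did not rise with it in the tdTomato line, where their log2 differences were -0.09 and -0.40. Whether the authors' counting used strand is not given in the sources used here, although Hotair shared exon bases with Gm27337 and Gm27443 alone, the short noncoding genes on the other strand. Gm27443, Gm28011 and Gm27535, further short noncoding genes annotated in the cluster, had group means of -2.14 to -0.58 and were not tested. The microRNA genes Mir196a-2 and Mir615 of the cluster were not analysed here.

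The protein-coding genes next to the cluster were measured in all lines. Calcoco1 and Atp5g2 lie beyond Hoxc13 and Smug1 and Cbx5 beyond Hoxc4. Between tdTomato and EYFP NSCs, Calcoco1, an autophagy receptor, was lower in tdTomato by 0.24 on the log2 scale (log2 difference -0.24 ± 0.05, adjusted p = 0.0065). Smug1, a DNA glycosylase, and Cbx5, a heterochromatin protein, differed by 0.14 and 0.00, and Atp5g2, an ATP synthase subunit, by -0.12, none past the threshold. In the hippocampal NSC group, where every Hoxc gene was without a clear signal, mean values were 10.70 for Calcoco1, 6.68 for Atp5g2, 8.37 for Smug1 and 14.22 for Cbx5. Calcoco1 rose on differentiation of every line, by 1.01 ± 0.05 for tdTomato cells (adjusted p = 1.5e-07), 0.89 ± 0.05 for EYFP cells (9.9e-08) and 1.23 ± 0.05 for hippocampal cells (2.1e-08). Smug1 fell in each of them, with log2 differences of -0.52, -0.21 and -0.24 in that order (adjusted p = 2.4e-04, 0.024 and 0.014).

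The traced lines also differed in the caudal genes of the other Hox clusters. Of 30 Hoxa, Hoxb and Hoxd genes, 27 were in the table. The paralogs of Hoxc8 to Hoxc10 were carried by both traced lines in all clusters that have them, apart from Hoxd10: in NSCs the means were 8.71 and 8.83 for Hoxb8, 9.14 and 9.55 for Hoxa9, and 9.39 and 9.02 for Hoxa10 in the tdTomato and EYFP lines. Hoxd10 was at 2.28, 2.53 and 2.85 in tdTomato NSCs and at 0.71, 0.95 and 1.21 in EYFP NSCs. Hoxa11 was at 4.18, 4.19 and 4.14 in tdTomato and at 1.95, 0.90 and 1.30 in EYFP NSCs. Hoxb13 was at 3.37, 3.39 and 3.61 and at 0.13, 0.12 and 0.57. Hoxd13 was at 3.09, 3.32 and 3.53 in tdTomato and at 0.17, 0.16 and 0.19 in EYFP NSCs, and Hoxa13 at 3.14, 2.51 and 2.33 and at 1.34, 0.67 and 0.70. Hoxa11 and Hoxb13 reached the limit only in tdTomato libraries, and Hoxd10, Hoxd13 and Hoxa13 not in enough libraries to be tested in NSCs. In every one of these 5 genes the tdTomato libraries were above all EYFP libraries. How many of all genes separate in this way was not counted.

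Counted over the list, 4 Hoxa, Hoxb and Hoxd genes were higher and 6 lower in tdTomato than in EYFP NSCs, of 23 tested, with a median log2 difference of -0.10 against 0.01 over all genes, of which 18% were higher and 15.2% lower. Of the 4 higher genes, Hoxa11 and Hoxb13 entered through tdTomato alone. The lower ones were all Hoxa genes, of which Hoxa7, a trunk gene, had the most negative log2 difference (-0.60 ± 0.05, adjusted p = 1.3e-04). In astrocytes 7 were higher and 3 lower, of 23 tested (median 0.12 against 0.00), beside 5.6% and 5.63% of all genes, and 2 of the higher ones, Hoxa11 and Hoxa13, entered through tdTomato alone. On differentiation of the tdTomato line, 17 of 24 tested rose and 2 fell (median 0.48 against 0.00), and of the EYFP line 12 of 21 rose and 3 fell (median 0.36 against 0.00). Hoxa13 and Hoxb13 are among the 24, although their being tested already implied a difference. Over all genes 39.9% rose and 39.5% fell in the tdTomato line, and 37.5% and 37.4% in the EYFP line. Hoxb9, the paralog of Hoxc9, rose by 1.79 ± 0.07 in the tdTomato line (adjusted p = 1.7e-08). The paralogs of Hoxc13 had opposite differences there: Hoxa13 was at 3.14, 2.51 and 2.33 in NSCs and at 4.51, 4.34 and 4.20 in astrocytes, whereas Hoxb13 was at 3.37, 3.39 and 3.61 in NSCs and at 0.98, 0.64 and 1.24 in astrocytes. Each reached the limit only in the fate where it was higher, so its own test is not given. Against hippocampal NSCs, 20 of 23 were higher in tdTomato and 18 of 21 in EYFP NSCs, with medians of 3.29 and 3.04 and 23% and 14.6% of all genes higher. Of these, 8 of the 23 and 6 of the 21 reached the limit in no hippocampal library, so that their being tested already implied a difference.

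The hippocampal line was not without Hox RNA, since several Hoxa genes were measured well above the limit in it. Hoxa5 had means of 9.25 in hippocampal NSCs and 8.51 in hippocampal astrocytes, and Hoxa3 of 8.73 and 7.87. In NSCs, Hoxa3 (log2 difference -1.19 ± 0.07, adjusted p = 2.3e-06) and Hoxa4 (-1.35 ± 0.14, adjusted p = 7.8e-05) were lower in the tdTomato than in the hippocampal line. In astrocytes the mean of Hoxa4 was again lower in tdTomato, at 6.05 against 7.14. That of Hoxa3 was higher there, at 8.58 against 7.87. Further caudal in that cluster, Hoxa9 and Hoxa10 had means of 4.65 and 4.53 in hippocampal NSCs, against 9.14 and 9.39 in tdTomato NSCs.

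**Figure D5:**
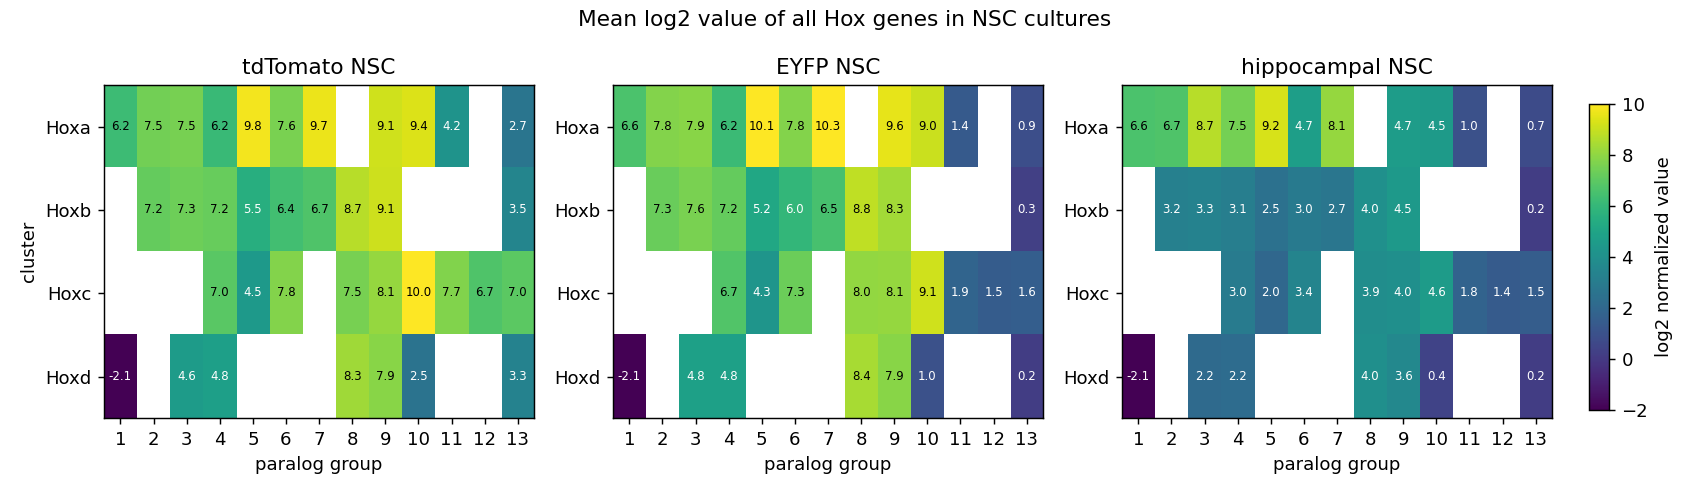
Mean log2 normalized value of the Hox genes in NSCs of the 3 lines (3 libraries each), arranged by cluster and by paralog group from 1 to 13; white cells are genes that do not exist or have no row in the table. Values are not per length, so each cell should be read across the 3 panels: in the Hoxc row, groups 11 to 13 hold 6.68 to 7.71 in the tdTomato line, 1.48 to 1.87 in the EYFP line and 1.43 to 1.83 in the hippocampal line.

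Hox proteins bind DNA with TALE cofactors of the Meis, Pbx and Pknox families, and RNA of all 9 was measured in every group. In tdTomato against EYFP NSCs, 3 of 9 were lower and none was higher, where 15.2% and 18% of all genes were, with Meis1 at a log2 difference of -0.65 ± 0.07 (adjusted p = 4.1e-04). On differentiation, 5 of 9 rose and 3 fell in the tdTomato line, where 39.9% and 39.5% of all genes did, and 3 rose and 4 fell in the EYFP line, where 37.5% and 37.4% did. Pbx4 fell by 1.18 in the tdTomato line and fell by 1.15 in the EYFP line, on the log2 scale.

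Polycomb complexes hold silent Hox genes in their repressed state and Trithorax proteins keep active ones open. Of 8 such regulators, 3 were higher and 2 lower in tdTomato than in EYFP NSCs, where 18% and 15.2% of all genes were, and 1 was lower in astrocytes, where 5.63% were. On differentiation, 2 rose and 4 fell in the tdTomato line and 2 rose and 5 fell in the EYFP line, beside the same shares of all genes as above, and 2 rose and 6 fell in the hippocampal line, where 39.2% and 38.2% of all genes did. Ezh2, the methyltransferase of Polycomb repressive complex 2, fell by 2.41 in the tdTomato line and fell by 2.09 in the EYFP line on the log2 scale (adjusted p = 5.5e-10 and 3.0e-09). It also fell by 1.95 in the hippocampal line (adjusted p = 5.8e-09), where no Hoxc gene was clearly carried. Kmt2a, a Trithorax methyltransferase, rose by 0.63, 0.31 and 0.39 in the same order of lines. The part of these genes in the Hoxc values was not tested.

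Of 8 genes that act upstream of Hox genes in the embryo, 6 were in the table and 2, Gdf11 and Rarb, were tested between the traced NSC groups. Gdf11, a signal that sets the trunk-to-tail transition, had means of 9.96 to 10.50 in NSCs and 11.54 to 11.57 in astrocytes. Cdx2, an activator of caudal Hox genes in the embryo, had means of -1.99 to -1.88. Gdf11 was higher in tdTomato than in EYFP NSCs by 0.27 ± 0.07 (SE, adjusted p = 0.018), and Rarb differed by 0.09 and did not pass.

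Markers of other cells were measured beside these results. Of the 3 microglial and 2 endothelial markers in the table, none reached the limit in all libraries of any group. The defining markers Aif1 (-2.14 to -2.10), Cdh5 (-2.14 to -2.09), Mog (-1.42 to -1.25) and Col1a2 (-2.14 to -2.09) had group means near the lowest values of the table. The summed level of the mesenchymal and mural list was 4.63 to 5.25 in NSC libraries, 5.05 to 5.94 in traced and 4.23 to 4.44 in hippocampal astrocytes. Within it, Lum had means of 4.46 in tdTomato, 3.79 in EYFP and 1.56 in hippocampal astrocytes. The summed level of the 4 neuron markers was 7.23 to 8.13 in NSC libraries, 8.31 to 8.79 in traced and 8.36 to 8.79 in hippocampal astrocytes. Among them, Rbfox3 had means of 4.94, 4.79 and 4.70 in tdTomato, EYFP and hippocampal NSCs and of 7.23, 6.75 and 5.65 in the astrocytes. The changes of Rbfox3 and Syt1 were higher in the traced than in the hippocampal line, by 1.17 ± 0.19 and 1.34 ± 0.26 (adjusted p = 8.2e-05 and 4.3e-04), and that of Tubb3 was lower, with a difference of -0.91 ± 0.21 (adjusted p = 0.0018). Snap25 had means of 1.40 to 3.29 and was not tested. Of the ependymal markers, Foxj1 had group means of 9.54 to 12.20, Rsph1 of 3.52 to 6.49 and Ccdc153 of 2.06 to 5.86. Their part in the Hoxc differences was not tested.

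The genes whose levels most resembled the Hoxc pattern were sought among 11956 genes, by the Pearson correlation over the 18 libraries with the mean of 7 members, all except Hoxc5 and Hoxc12. Outside the Hox clusters these were Flot2 (0.977), which encodes a membrane scaffold protein, the protocadherin Pcdhgb4 (0.970), Tceal3 (0.966), the ventral spinal cord transcription factor Nkx6-1 (0.964) and Entpd4 (0.951). Nkx6-1 had means of 9.03 and 9.74 in tdTomato NSCs and astrocytes, 8.75 and 8.85 in EYFP, and 4.25 and 4.38 in hippocampal cultures. Gm53, a noncoding RNA gene on chromosome 11 within the Hoxb cluster, reached 0.968 and was named after its value was seen. The 18 libraries share 3 lines and 2 fates, so these correlations mainly describe the order of the groups.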

How the data were processed

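RNA was measured by bulk sequencing in the 18 libraries described above. The deposited table holds log2 values: per the labels, the authors trimmed reads (Trimmomatic 0.36), aligned them with STAR (2.5.2), estimated gene counts with RSEM (1.3.0) on GRCm38 and normalized them with DESeq2 (1.18.1). The methods name the same tools but give another version of RSEM, and the transform is not named. The methods give a KAPA poly(A) kit and the labels a TruSeq Stranded kit, and whether counting used strand is not given in the sources used here.

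From these values, each comparison was fitted by limma (3.58.1, run in R 4.3.3; variance allowed to follow mean level) using only libraries of the groups compared, and the interactions on 12 and 18 libraries. Genes had to reach 10 on the linear scale in at least 3 libraries. P-values were two-sided, adjusted over all genes tested, with a threshold of 0.05. No pseudocount was added. The fits were tested on simulated data. Depth per library is unknown, so no counting interval is given. Symbols were matched for 27887 genes, and exon lengths, coordinates and homeoboxes came from GENCODE M21.

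The members, the other gene lists and the tests were chosen with earlier results of these data known. Genes named were all members, genes inside the cluster and the 2 nearest protein-coding genes on each side, at most 4 per list with paralogs of groups 8 to 13, and the 5 genes most like the members. Xist and Ddx3y were named after their values were seen. Where a library was left out, the genes tested were those of the full comparison. No value column was without a sample. Some items of the gene lists are not reported here.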

Additional observations from a re-analysis of the deposited data

Results flagged for a closer look

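Hoxc8 changed unequally in the traced lines: its rise from NSC to astrocyte was larger in the tdTomato than in the EYFP line by 0.64 (log2), by the interaction test. Against the hippocampal line, the mean rise of the traced lines was larger by 1.23 for Hoxc8, 0.96 for Hoxc9 and 0.66 for Hoxc5, by the test of that difference. In the hippocampal line these 3 genes were at values of genes without a clear signal, so the contrast mainly restates the rise of the traced lines. Hoxc5 entered it only through the traced libraries. Groups of 3 libraries are too small for a search for outlying libraries.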

How the results depend on the processing

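The number of Hoxc genes passing was recomputed with all 18 libraries in the fit, no filter, a filter at 100, median centring, quantile normalization, pseudocounts of 1 and 10, no trend in the variance, the replicate number as a block, and each library left out; tdTomato and EYFP were also pooled against the hippocampal line. It stayed within 1.5 times the value given except as follows and, for 1 interaction, with single libraries left out. With a filter at 100, 4 in place of 7 members passed between tdTomato and EYFP astrocytes, because fewer members were tested. Without the trend, 1 in place of 0 passed for the change in the hippocampal line. Under quantile normalization, 5 in place of 3 passed for the difference between traced and hippocampal changes; Hoxc10 turned from -0.01 to 0.40 there, and the cause was not tested. With a limit of 100, the hippocampal counts of members above the limit were 0 in place of 4.

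With each library left out, the members passing numbered 9 in both comparisons of tdTomato with hippocampal, 6 in both of EYFP with hippocampal, 6 between tdTomato and EYFP NSCs and 6 to 7 between their astrocytes. They numbered 4 to 7 for the change in tdTomato, 3 to 4 in EYFP and 0 in the hippocampal line, and 1 to 2 and 3 for the interactions of the traced lines and of traced with hippocampal. The counts above the limit did not move: 9 in tdTomato, 6 in EYFP and 4 in hippocampal groups. Where an interval or adjusted p was near the threshold, the effect of a library is given with the result.

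The labels give the same replicate numbers to all groups, but nothing says that a number marks a shared batch. Deviations of same-numbered libraries correlated at 0.11 on average within a fate (18 pairs, 0.01 to 0.31, 9 of them over 0.1), at -0.02 between the fates of a line (9 pairs, none over 0.1) and at 0.00 where both line and fate differed (18 pairs, -0.06 to 0.04). Since not every pair was over 0.1, the numbers were not taken to pair the samples, although same-numbered libraries of a fate may share some variation. With the replicate block, the counts of members passing were the same in every comparison: 9, 6 and 6 in NSCs, 9, 6 and 7 in astrocytes, 6, 3 and 0 for the changes, and 1 and 3 for the interactions. Depth is unknown and limits the low values: differences from groups without a clear signal are lower bounds, and reads too few to leave that level were not detectable.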
